A study of Mus musculus with 4 samples.

Results

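The genes described here are 43 type I interferon response genes of the mouse: antiviral effectors, the oligoadenylate synthetases, the ISG15 and ADP-ribose conjugation genes, signal factors and nucleic acid sensors. They were chosen by name from a written list, and all 43 had a row among the 24497 features of the deposited expression table. RNA came from spleen cells of mice with acute myeloid leukaemia driven by the MLL-AF9 fusion (MA9). Both groups were secondary recipients of sorted CD45.2+ MLL-AF9 leukaemic bone marrow cells after sub-lethal irradiation, and they received either PBS, the vehicle control, or CS1, an FTO inhibitor, at 5 mg/kg, injected intraperitoneally on alternate days for 20 days. FTO is an RNA demethylase that removes N6-methyladenosine marks. Each group had 2 libraries of poly(A) RNA from spleen cells enriched for CD45.2 with magnetic beads, without a reported purity. Sub-lethally irradiated hosts keep cells of their own. The labels give no strain, age or sex and do not say whether a library is 1 animal or a pool, so the p-values reflect only how far these libraries differ, which may be technical. One label of CS1 replicate 2, the treatment, names CS2. Its title names CS1, and it was kept in that group.

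Type I interferons bind the receptor made of IFNAR1 and IFNAR2, and the kinases JAK1 and TYK2 then phosphorylate transcription factors, STAT2 among them. STAT2 works with IRF9 in the complex ISGF3, which binds the interferon-stimulated response element in the promoters of the response genes. The products block viral entry, translation and replication, and some of them (IRF7, RIG-I, MDA5, cGAS, STING) feed back on the making of interferon. Myeloid cells express part of this programme without infection.

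Values are TPM, a transcript's share of all transcripts after correction for length, so that levels can be compared between genes. The columns summed to between 977973 and 986345, and TPM do not tell how many reads lie behind a value. Fold changes are differences of log2(TPM + 1), CS1 minus PBS, which understates the change of low genes, and errors beside them are standard errors. A gene was tested if it reached 1 TPM in at least 2 of the 4 libraries, and was called at a limma adjusted p under 0.05, adjusted over all 11866 tested features. All 10 genes listed for myeloid leukaemia cells were present in every library. The list was not shown to separate leukaemic cells from host myeloid cells. Of the 10, 4 were called lower and 5 higher in CS1, with a median log2 fold change of 0.15. Among all tested features the shares were 31.6% lower and 35.3% higher, and the median was 0.04. Ptprc, which encodes CD45, stood at 583 and 597 TPM in PBS and 323 and 315 in CS1, and Itgam, the CD11b integrin chain, at 976 and 988 against 509 and 504 TPM. Spi1 and Csf1r were also called lower. Mpo, Ctsg, Cd33, Hoxa9 and Meis1 were called higher. Among them Hoxa9 went from 66.3 and 69.2 TPM to 160 and 157 TPM, and Meis1 from 25.2 and 26.6 TPM to 36.0 and 36.8 TPM.

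Most interferon response genes were lower in CS1. Of the 40 tested members, 28 were called lower (70%), 1 was called higher and 11 were not called. Over all tested features 31.6% were called lower and 35.3% higher. The median log2 fold change of the tested members was -0.51, against 0.04 over all tested features. The member called higher was Samd9l, a restriction factor of viral translation. In bulk RNA, fewer cells of a type and less RNA per cell cannot be told apart. Rtp4, a chaperone of chemosensory receptors that interferon induces, passed the filter through its PBS values alone. Without it, 27 of 39 members were lower and 1 higher, with a median of -0.48. Leaving out CS1 replicate 2 gave 25 lower and 2 higher, the added one being Cmpk2, a mitochondrial nucleotide kinase (adjusted p = 0.048).

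The falls were large in a few genes. A decrease of at least 1 on the log2 scale was called in 7 members, namely Zbp1, Oasl2, Ifitm3, Oas2, Parp14, Oas1a and Irf7, and in 2.44% of all tested features. The count depends on the pseudocount and the scaling. With a pseudocount of 0.1 or 0.5, or after quantile normalization, it was 11 members, against 3.30%, 2.88% and 3.16% of all tested features. The added ones were Usp18, Rtp4, Lgals3bp and Oas3, of which Rtp4 passed the filter through its PBS values alone. Both CS1 libraries lay below both PBS libraries for 31 of the 40 tested members, as they did for 39.3% of all tested features. They lay above for 2 members, Samd9l and Cmpk2, and the groups overlapped for 7. Summed over the 43 members, expression was 6166 and 6231 TPM in the PBS libraries and 3448 and 3480 TPM in the CS1 libraries. The 4 Ifitm genes made up 81.2% and 80.9% of that sum in PBS and 74.6% and 75.2% in CS1. The other 39 members together went from 1162 and 1191 TPM to 876 and 864 TPM. Spearman's rho was 0.03 between the mean level and the log2 fold change over the 40 tested members, a description of genes measured in the same 4 libraries. By level, 8 of 10 members of at least 50 TPM, 11 of 17 between 10 and 50 TPM, and 9 of 13 under 10 TPM were called lower. The share of all tested features called lower was 31.6% over all levels. It was not computed within these bands, so the counts do not compare levels.

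**Figure D1:**
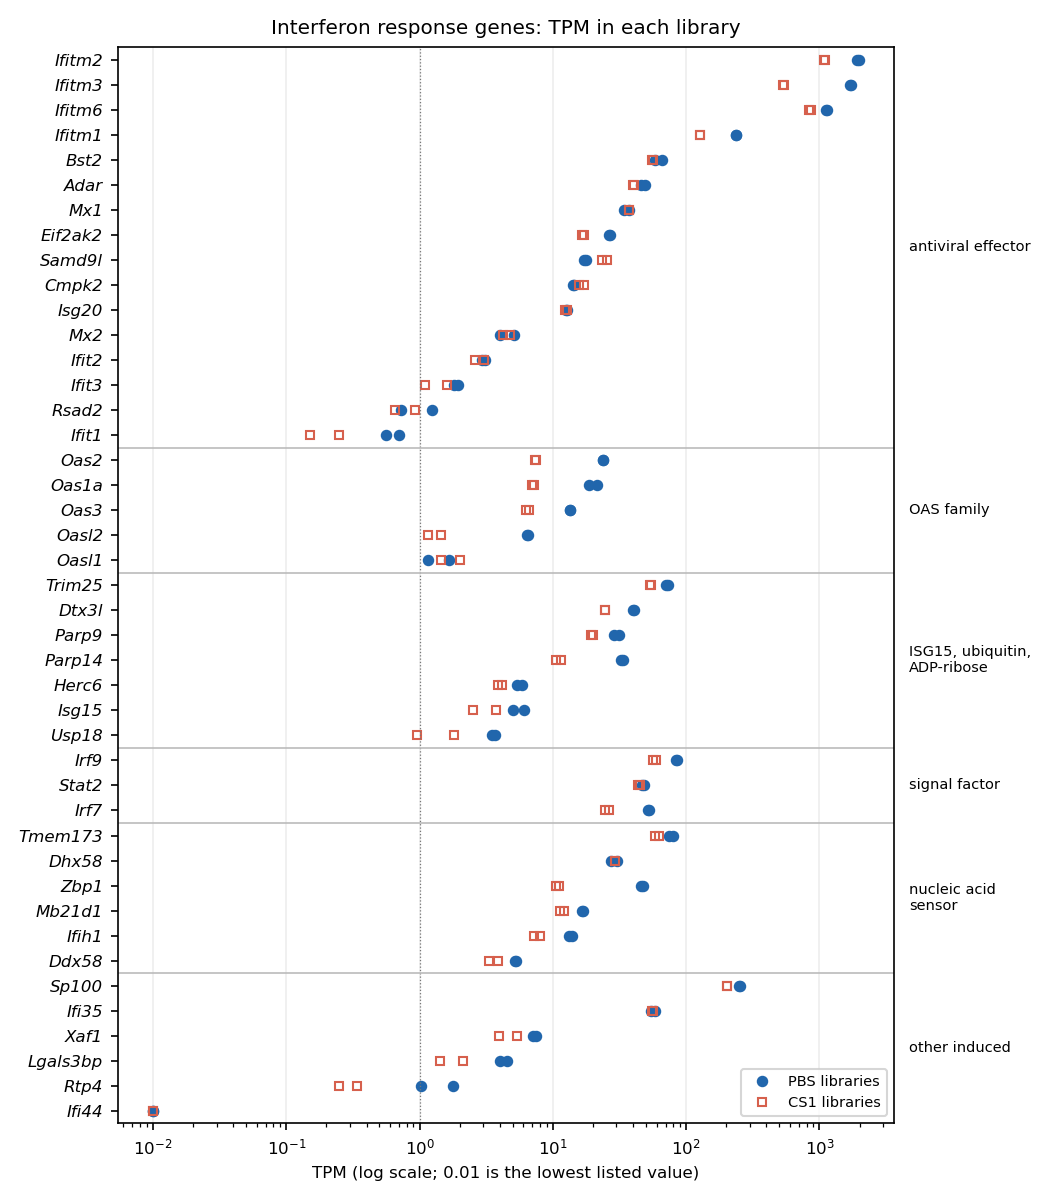
TPM of the 43 interferon response genes in each library on a log axis, with filled circles for the 2 PBS and open squares for the 2 CS1 libraries, ordered by role and by mean level. Ifitm2, Ifitm3 and Ifitm6 stand highest, the squares lie left of the circles for most genes, and Ifi44 is listed at 0.01 in every library.

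**Figure D2:**
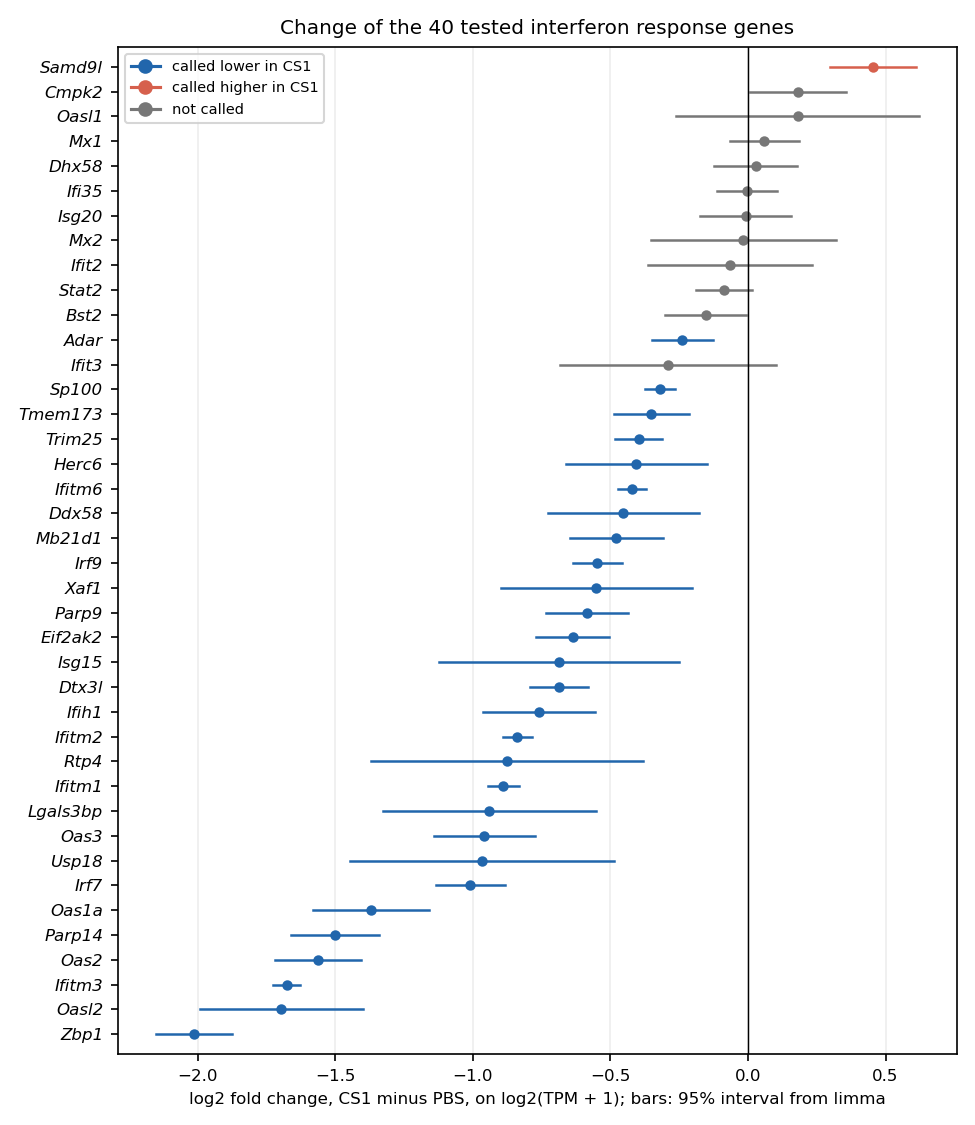
Log2 fold change (CS1 minus PBS, on log2(TPM + 1)) of the 40 tested members with 95% intervals from limma. Blue members (28) were called lower, the red member (Samd9l) higher, and grey members (11) were not called; Zbp1 is the lowest at -2.01.

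**Figure D3:**
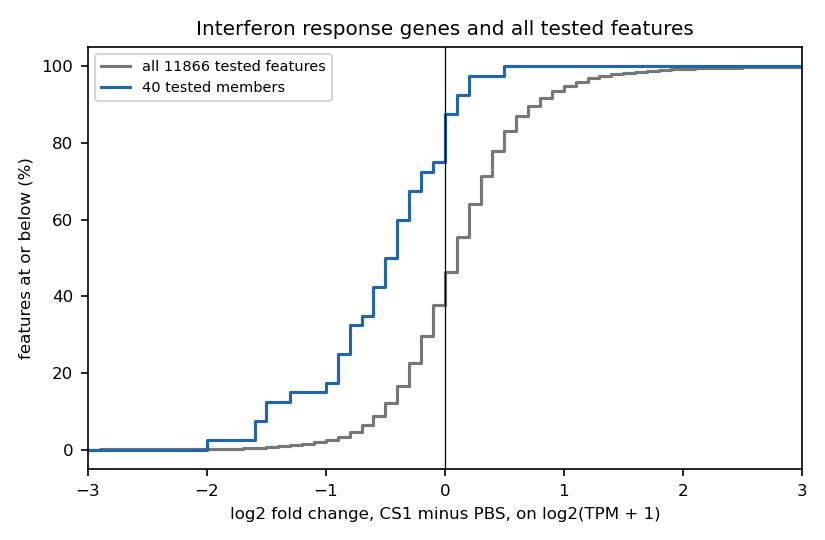
Cumulative share of features at or below each log2 fold change, for the 40 tested members (blue) and all 11866 tested features (grey). The members' line runs to the left of the line of all features, with medians of -0.51 and 0.04.

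The response element appears in the promoters of some members, on both sides of the call. RefSeq promoter sequences (GRCm38.p6) were found for 33 of the 43 members; Mx1, Mx2, Oas2, Usp18, Rtp4, Dhx58, Parp9, Parp14, Zbp1 and Tmem173 had none. The core of the element, GAAANNGAA, was searched on both strands in the 250 bases before the start site. It was present for 12 of 33 members (36.4%), against 8.18% of 27025 genes with a promoter. By promoter, since a gene can have several, the share was 12 of 40, or 30%, against 7.13% of 32851. Among the members called lower, 7 of 21 held a match, and among those not called 3 of 8 did (Ifit3, Stat2 and Bst2). The remaining matches were in Ifit1 and Rsad2, which were not tested. A match is a run of letters and was not tested as a binding site. The 5 called members with a match and the largest changes are shown to let the element be seen beside genes that fell. Each run is 100 bases, read 5′ to 3′ on the gene's strand, with the matches in capitals, and all 5 genes are on the minus strand. Matches that overlap are joined into 1 run of capitals. The windows lie at chr5:120907526-120907625 (Oas1a), chr5:120777660-120777759 (Oas3), chr7:140955962-140956061 (Ifitm2), chr2:62646314-62646413 (Ifih1) and chr4:156200819-156200918 (Isg15).
Oas1a: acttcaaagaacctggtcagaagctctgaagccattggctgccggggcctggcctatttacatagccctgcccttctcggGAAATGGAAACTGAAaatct
Oas3: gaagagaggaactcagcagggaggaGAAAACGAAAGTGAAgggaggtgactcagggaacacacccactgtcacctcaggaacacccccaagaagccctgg
Ifitm2: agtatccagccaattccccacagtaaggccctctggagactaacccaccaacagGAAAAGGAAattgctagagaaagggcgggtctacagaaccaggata
Ifih1: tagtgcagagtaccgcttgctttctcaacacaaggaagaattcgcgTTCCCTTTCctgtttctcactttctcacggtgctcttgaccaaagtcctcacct
Isg15: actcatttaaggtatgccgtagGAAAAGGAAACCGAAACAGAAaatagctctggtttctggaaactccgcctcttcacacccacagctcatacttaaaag
Oas1a held 2 overlapping matches, beginning 20 and 14 bases before the start, and Oas3 held 2, beginning 75 and 69 bases before it. Isg15 held 3 overlapping matches, which began 78, 72 and 66 bases before the start. The match of Ifitm2 began 46 bases before the start. That of Ifih1, on the opposite strand, began 112 bases before it, and its window ends 59 bases short of the start.

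The antiviral membrane proteins of the Ifitm family, which hinder the fusion of viruses with the cell, included the most abundant members. All 4 genes were called lower, against 31.6% of all tested features. Ifitm3 (chromosome 7, 141009586 to 141010770, mm10) stood at 1708 and 1710 TPM in PBS and at 529 and 539 TPM in CS1. Its CS1 libraries lay far below its PBS libraries, at 31.2% of the PBS mean (log2 fold change -1.68 ± 0.02, adjusted p = 5.86e-07). Ifitm2 (140954837 to 140955987) stood at 1920 and 1965 TPM in PBS and at 1077 and 1094 TPM in CS1. Ifitm1 (140967221 to 140969825), the family member best known at the cell surface, went from 235 and 236 TPM to 127 and 126 TPM. Both genes were a little above 50% of their PBS level in each CS1 library (log2 fold changes -0.84 ± 0.02 and -0.89 ± 0.02, adjusted p = 4.00e-06 and 4.36e-06). Ifitm6 (141015699 to 141017924), a haematopoietic member of the family, changed least, from 1142 and 1129 TPM to 838 and 856 TPM (log2 fold change -0.42 ± 0.02, adjusted p = 2.61e-05). The 4 genes lie within 1 stretch of chromosome 7, yet their order changed. The ratio of Ifitm3 to Ifitm6 in TPM was 1.50 and 1.52 in the PBS libraries and 0.631 and 0.629 in the CS1 libraries. Of the 31-base words in the transcripts of Ifitm2 and Ifitm3, 55.5% and 20.5% also stand in transcripts of other genes. The values of these genes are less certain for it, but the shares do not measure by how much.

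The other antiviral effectors did not move together. Eif2ak2 encodes PKR, the kinase that stops translation on double-stranded RNA, and fell from 26.2 and 27.0 TPM to 17.0 and 16.5 TPM (log2 fold change -0.64 ± 0.05, adjusted p = 0.00018). Adar, the adenosine deaminase that edits double-stranded RNA, fell from 49.0 and 46.1 TPM to 39.8 and 40.4 TPM (log2 fold change -0.24, adjusted p = 0.00449). The groups did not overlap for either gene. Exons of Adar overlap those of Chrnb2 on the opposite strand. Samd9l went the other way, from 17.1 and 17.8 TPM in PBS to 25.3 and 23.3 TPM in CS1. Its CS1 libraries were both above its PBS libraries (log2 fold change 0.46 ± 0.06, adjusted p = 0.00132).

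The Mx and Ifit genes, which are widely used as readouts of interferon, were not called. Mx1, a dynamin-like GTPase that traps viral nucleocapsids, stood at 34.3 and 37.1 TPM in PBS and 37.1 and 37.3 TPM in CS1, and the groups overlapped. The 95% interval of its log2 fold change ran from -0.07 to 0.18. Its neighbour Mx2, annotated as a polymorphic pseudogene, was low, at 3.99 and 5.13 TPM in PBS and 4.73 and 4.21 TPM in CS1. The interval of Mx2 ran from -0.35 to 0.32. Ifit2, which belongs to a family that binds foreign RNA ends, stood at 2.92 and 3.09 TPM in PBS and 3.05 and 2.62 TPM in CS1 (interval -0.36 to 0.23). Ifit3 was at 1.80 and 1.93 against 1.61 and 1.1 TPM (interval -0.68 to 0.10), and 61.8% of its 31-base words also stand in its close copy Ifit3b. After quantile normalization Ifit3 was called lower (adjusted p = 0.0217). Ifit1 and Rsad2, the gene of the radical enzyme viperin, were too low to be tested. Ifit1 was at 0.70 and 0.56 TPM in PBS and 0.15 and 0.25 TPM in CS1, and Rsad2 at 1.23 and 0.73 against 0.65 and 0.92 TPM.

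Isg20, an RNA exonuclease, was level across the libraries, at 12.8 and 12.5 TPM in PBS and 12.8 and 12.3 TPM in CS1 (interval of the log2 fold change -0.17 to 0.16). Bst2 encodes tetherin, which holds budding virions on the cell. It stood at 58.6 and 65.9 TPM in PBS and 54.9 and 56.6 TPM in CS1. Its CS1 libraries were below its PBS libraries, but the difference was not called (log2 fold change -0.15 ± 0.06, adjusted p = 0.0631). It was called lower with TMM scaling (trimmed mean of M values), with the replicate block and without PBS replicate 1 (adjusted p = 0.0203, 0.0334 and 0.0112). Cmpk2 stood at 14.2 and 14.5 TPM in PBS and 17.2 and 15.7 TPM in CS1 (log2 fold change 0.18 ± 0.07, adjusted p = 0.0627).

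The oligoadenylate synthetases make the second messenger that activates RNase L. Of the 5 listed genes 4 were called lower, against 31.6% of all tested features. Oas2 (chromosome 5, 120730333 to 120749853) went from 23.7 and 23.7 TPM to 7.28 and 7.44 TPM, which is 31.1% of the PBS mean (log2 fold change -1.56 ± 0.06, adjusted p = 1.40e-05). Oas1a (120896256 to 120907521) went from 18.7 and 21.3 TPM to 6.97 and 7.26 TPM. Oas3 (120753098 to 120777661) went from 13.5 and 13.4 TPM to 6.59 and 6.33 TPM. These 3 genes are neighbours, and each was lower in both CS1 libraries than in either PBS library (log2 fold changes -1.37 for Oas1a and -0.96 for Oas3, adjusted p = 5.92e-05 and 0.000135). Oas1a shares 68.8% of its 31-base words with other genes, nearly all with Oas1g, which was listed at 0.34 and 0.38 TPM in PBS and 0.01 and 0.24 TPM in CS1.

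The 2 synthetase-like genes stand side by side on chromosome 5 and differed in what was seen. Oasl2 (114896936 to 114912234) went from 6.37 and 6.48 TPM to 1.44 and 1.15 TPM, with the CS1 mean at 20.2% of the PBS mean (log2 fold change -1.70 ± 0.12, adjusted p = 9.22e-05). Oasl1 (114923240 to 114937915), a brake on the translation of Irf7, stood at 1.16 and 1.66 TPM in PBS and 1.45 and 2.01 TPM in CS1, with overlapping groups (adjusted p = 0.403). The 95% interval for Oasl1, from -0.26 to 0.62, lies above that of Oasl2, from -1.99 to -1.40. The ratio of Oasl1 to Oasl2 in TPM was 0.182 and 0.256 in PBS and 1.01 and 1.75 in CS1.

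All 7 genes of ISG15, ubiquitin and ADP-ribose conjugation were called lower, against 31.6% of all tested features. The 7 log2 fold changes ran from -1.50 to -0.40. Trim25, the ubiquitin ligase that acts on RIG-I, was the most abundant, at 70.6 and 72.5 TPM in PBS and 54.7 and 53.5 TPM in CS1 (log2 fold change -0.40, adjusted p = 0.000206). Parp14 (chromosome 16, 35832874 to 35871544), a mono-ADP-ribosyltransferase of macrophage signalling, changed most, from 33.8 and 32.2 TPM to 11.5 and 10.6 TPM (log2 fold change -1.50 ± 0.07, adjusted p = 1.70e-05). Parp9 and its partner Dtx3l, a ubiquitin ligase, lie next to it and fell less. Dtx3l went from 39.9 and 40.8 TPM to 24.6 and 24.8 TPM, and Parp9 from 31.3 and 28.7 TPM to 19.9 and 19.4 TPM (log2 fold changes -0.69 and -0.59, adjusted p = 5.90e-05 and 0.000414). Exons of Parp9 and Dtx3l overlap on opposite strands, and the sources used here do not say if counting used strand, so reads of the overlap cannot be assigned. The ratio of Parp14 to Parp9 in TPM was 1.08 and 1.12 in PBS and 0.577 and 0.545 in CS1.

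Isg15, the ubiquitin-like modifier itself, was low, at 6.11 and 5.04 TPM in PBS and 3.74 and 2.50 TPM in CS1. The groups did not overlap (log2 fold change -0.69 ± 0.18, adjusted p = 0.0157), but the call was lost with no filter and without PBS replicate 1 or CS1 replicate 2 (adjusted p = 0.0597, 0.0848 and 0.0527). Usp18, the protease that removes ISG15 and restrains the receptor, went from 3.69 and 3.50 TPM to 1.82 and 0.96 TPM (log2 fold change -0.97 ± 0.19, adjusted p = 0.00609). Herc6, the ISG15 ligase of the mouse, went from 5.34 and 5.91 TPM to 4.15 and 3.85 TPM (log2 fold change -0.41, adjusted p = 0.0156). The Herc6 call was lost without PBS replicate 2 or CS1 replicate 2 (adjusted p = 0.0818 and 0.0692).

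Of the signal factors, Irf7 and Irf9 fell. Irf7, the master regulator of interferon-alpha genes, went from 52.7 and 52.1 TPM to 24.5 and 26.5 TPM, or 48.7% of the PBS mean (log2 fold change -1.01 ± 0.05, adjusted p = 2.78e-05). Irf9, the DNA-binding subunit of ISGF3, went from 84.5 and 85.9 TPM to 59.2 and 56.7 TPM (log2 fold change -0.55 ± 0.04, adjusted p = 6.75e-05). Neither showed any overlap between groups, and exons of Irf7 and Irf9 overlap those of Phrf1 and Rnf31. Stat2, the partner of IRF9, stood at 46.4 and 48.3 TPM in PBS and 43.8 and 45.2 TPM in CS1. It was not called (log2 fold change -0.09, interval -0.19 to 0.01, adjusted p = 0.109), except with TMM scaling (adjusted p = 0.0211).

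Among the nucleic acid sensors 5 of 6 were called lower, by very different amounts, against 31.6% of all tested features. Zbp1 (chromosome 2, 173206612 to 173218923) senses Z-form nucleic acids and can start necroptosis. It went from 45.5 and 47.8 TPM in PBS to 10.6 and 11.0 TPM in CS1. Its CS1 mean was 23.1% of its PBS mean (log2 fold change -2.01 ± 0.06, adjusted p = 4.66e-06).

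The RIG-I-like receptors detect viral RNA in the cytosol. Ifih1, which encodes MDA5, the sensor of long double-stranded RNA, went from 13.1 and 13.9 TPM to 7.95 and 7.24 TPM (log2 fold change -0.76 ± 0.08, adjusted p = 0.000497). Ddx58, which encodes RIG-I, went from 5.29 and 5.22 TPM to 3.87 and 3.29 TPM (log2 fold change -0.45 ± 0.11, adjusted p = 0.0131). The Ddx58 call was lost without PBS replicate 1, PBS replicate 2 or CS1 replicate 2 (adjusted p = 0.0585, 0.0524 and 0.062). Dhx58, which encodes LGP2, the member of the family without a signalling domain, stood at 27.2 and 30.1 TPM in PBS and 29.3 and 29.1 TPM in CS1. Its groups overlapped, and the interval of its log2 fold change ran from -0.12 to 0.18. The ratio of Dhx58 to Ifih1 in TPM was 2.07 and 2.16 in PBS and 3.68 and 4.02 in CS1.

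Both genes of the cytosolic DNA-sensing pair fell. Mb21d1, which encodes the DNA sensor cGAS, went from 16.7 and 16.7 TPM to 12.2 and 11.3 TPM (log2 fold change -0.48 ± 0.07, adjusted p = 0.00156). Tmem173, which encodes its adaptor STING, went from 74.0 and 80.2 TPM to 62.4 and 58.0 TPM (log2 fold change -0.35 ± 0.05, adjusted p = 0.00217). In both genes the CS1 libraries lay below the PBS libraries.

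Of the other induced genes, Sp100, a nuclear body protein, fell from 253 and 251 TPM to 202 and 202 TPM (log2 fold change -0.32 ± 0.02, adjusted p = 7.81e-05). Lgals3bp, a secreted galectin-binding glycoprotein, fell from 4.02 and 4.52 TPM to 2.10 and 1.43 TPM (log2 fold change -0.94 ± 0.16, adjusted p = 0.00283). Xaf1, an antagonist of the apoptosis inhibitor XIAP, went from 7.04 and 7.48 TPM to 3.97 and 5.39 TPM. The Xaf1 call (adjusted p = 0.0151) was lost with no filter and without PBS replicate 2 (adjusted p = 0.0556 and 0.0723). Rtp4 was at 1.03 and 1.78 TPM in PBS and 0.25 and 0.34 TPM in CS1 (log2 fold change -0.88 ± 0.20, adjusted p = 0.00995). Because Rtp4 passed the filter through its PBS values alone, its call is not taken as support for a fall. Ifi35, which binds the STAT-interacting protein NMI, was level at 54.2 and 58.2 TPM in PBS and 56.5 and 55.5 TPM in CS1 (interval -0.11 to 0.11). Ifi44 was listed at 0.01 TPM, the lowest value of the table, in all 4 libraries.

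Interferon transcripts themselves were nearly absent from these cells. Of 21 listed interferon genes, 18, including Ifnb1 and all the listed interferon-alpha genes, stood at 0.01 TPM in every library. Ifng was at 0.22 and 0.54 TPM in PBS and 0.01 and 0.12 TPM in CS1, and none of the 21 could be tested. Of the 6 listed receptor genes 5 were called lower and 1, Ifnlr1 of the type III receptor, at 1.46 and 1.65 against 1.46 and 2.07 TPM, was not. Over all tested features 31.6% were called lower. Ifnar1 stood at 55.9 and 57.4 TPM in PBS and 52.3 and 51.7 TPM in CS1, and Ifnar2 at 130 and 136 against 118 and 121 TPM. Both were called lower by small amounts (log2 fold changes -0.12 and -0.15, adjusted p = 0.0237 and 0.00752). The Ifnar1 call was lost in limma without its variance trend, after quantile normalization and without PBS replicate 2, CS1 replicate 1 or CS1 replicate 2 (adjusted p = 0.0549, 0.0805, 0.108, 0.0617 and 0.0902), and the Ifnar2 call after quantile normalization (adjusted p = 0.629). Ifngr2, a chain of the interferon-gamma receptor, fell most of the 6, from 124 and 131 TPM to 86.5 and 89.8 TPM (log2 fold change -0.53 ± 0.04, adjusted p = 8.85e-05).

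Downstream of the receptor, 7 of 10 kinase and factor genes were called lower and 2 higher, with a median log2 fold change of -0.45. The shares over all tested features were 31.6% lower and 35.3% higher. Jak1 went from 147 and 143 TPM to 79.4 and 81.7 TPM, and Tyk2 from 126 and 126 TPM to 97.1 and 98.8 TPM (log2 fold changes -0.84 and -0.36, adjusted p = 1.02e-05 and 0.000109). Irf1, a factor that interferon-gamma induces, fell from 35.6 and 37.8 TPM to 22.8 and 23.3 TPM (log2 fold change -0.65, adjusted p = 0.00014). Irf3, the factor activated by the sensors, was at 71.9 and 73.6 against 69.7 and 70.4 TPM and was not called (adjusted p = 0.185), except with TMM scaling (adjusted p = 0.0193). Irf8, a factor of monocyte and dendritic cell fate, was called higher by a small amount, from 263 and 256 TPM to 279 and 273 TPM (log2 fold change 0.09, adjusted p = 0.0207). The Irf8 call was lost with TMM scaling, in limma without its variance trend, and without PBS replicate 2 or CS1 replicate 1 (adjusted p = 0.398, 0.116, 0.105 and 0.0919).

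Genes that carry the sensors' signal or restrain the response moved in both directions. Of 13 tested sensor adaptors and kinases, 8 were called lower (61.5%) and 2 higher (15.4%). Of 13 negative regulators 5 were lower (38.5%) and 3 higher (23.1%). Over all tested features 31.6% were called lower and 35.3% higher, so the share of negative regulators called lower was near that of all features. Ifi204, a nucleic acid-binding protein of the PYHIN family, fell from 84.1 and 79.7 TPM to 24.9 and 24.9 TPM, while Ifi203 of the same family rose from 17.4 and 16.7 TPM to 39.4 and 38.3 TPM (log2 fold changes -1.68 and 1.14, adjusted p = 3.98e-06 and 1.80e-05). The DNA sensor gene Aim2 also rose (log2 fold change 0.26), and Myd88, the adaptor of the Toll-like receptors, fell (log2 fold change -0.90). Mavs, the adaptor of the RIG-I-like receptors, fell from 30.5 and 27.7 TPM to 23.6 and 24.3 TPM (adjusted p = 0.0101), and Tbk1, the kinase of IRF3, stood at 74.4 and 72.4 against 73.8 and 72.0 TPM (log2 fold change -0.01, interval -0.09 to 0.07). Of the negative regulators, Socs3 and the phosphatase gene Ptpn1 fell (log2 fold changes -1.23 and -1.12). Pias4, a SUMO ligase, and the RNase H2 subunit gene Rnaseh2a were among those called higher (log2 fold changes 0.48 and 0.26). Samhd1, which degrades deoxynucleotides, fell from 738 and 739 TPM to 335 and 322 TPM (log2 fold change -1.17 ± 0.02, adjusted p = 2.84e-06). Trex1, an exonuclease that clears cytosolic DNA, fell from 119 and 127 TPM to 100.3 and 108 TPM (log2 fold change -0.24, adjusted p = 0.00627), a call lost after quantile normalization (adjusted p = 0.0654). Socs1, the inhibitor of the receptor kinases, was at 1.87 and 2.01 TPM in PBS and 3.44 and 2.05 TPM in CS1. It was not called with all libraries (adjusted p = 0.195), and was called higher without CS1 replicate 2 (adjusted p = 0.029).

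A further list of 60 interferon-induced genes outside the 43 went mostly the same way. Of its 51 tested genes, 39 were called lower (76.5%) and 5 higher (9.8%), with a median log2 fold change of -0.53. The shares over all tested features were 31.6% and 35.3%. The 3 of smallest p that fell were Slfn1, a growth regulator of the Schlafen family (154 and 157 TPM to 51.8 and 50.4 TPM), Ly6e, a surface protein that hinders coronavirus entry (1410 and 1375 TPM to 891 and 901 TPM), and Trim30a, a ubiquitin ligase that restrains NF-kB (53.1 and 54.2 TPM to 19.0 and 17.6 TPM). The 3 of smallest p that rose were Pml, the organizer of nuclear bodies (14.5 and 13.5 TPM to 18.2 and 17.8 TPM), the immunoproteasome subunit gene Psmb9 (93.0 and 95.4 TPM to 120 and 107 TPM) and Pnpt1, a mitochondrial RNA exonuclease (28.0 and 30.5 TPM to 36.5 and 34.5 TPM). Over all 124 other pathway genes listed, 93 were tested, of which 64 were called lower (68.8%) and 12 higher (12.9%), with a median of -0.42. Gbp5 passed the filter through its PBS values alone, and without it 63 of 92 were lower.

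**Figure D4:**
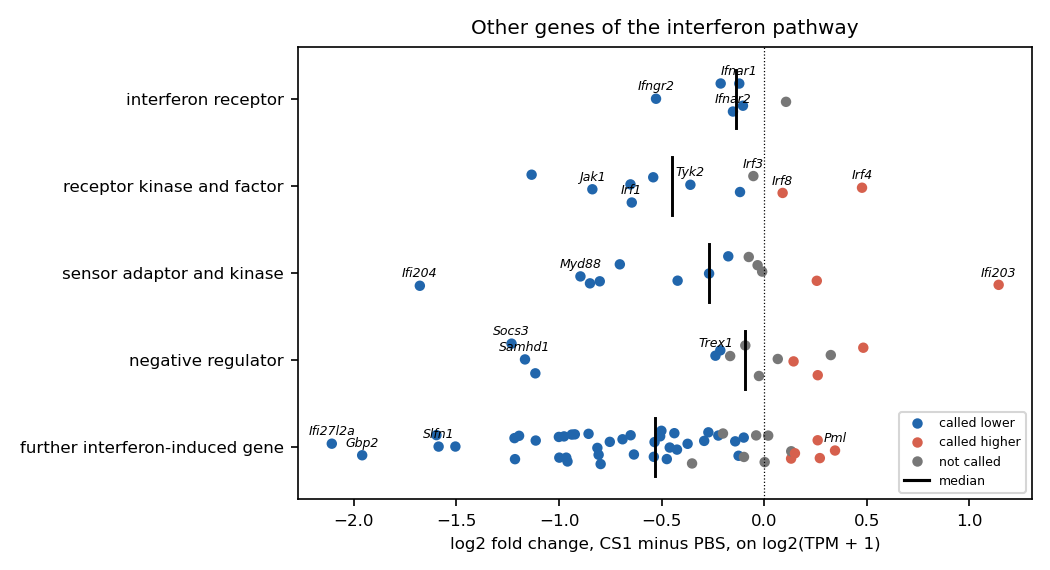
Log2 fold change (CS1 minus PBS, on log2(TPM + 1)) of 93 other genes of the interferon pathway, 1 point per gene, with a black bar at the median of each list; points are spread vertically only to separate them. The receptor genes have a median of -0.14, with Ifngr2 the lowest at -0.53, and the further interferon-induced genes lie mostly to the left (median -0.53).

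Markers of cell states and cell types also moved between the groups, and their part in these results was not tested. Of 44 tested markers, 47.7% were called lower and 36.4% higher. Over all tested features the shares were 31.6% and 35.3%, so a called marker is common in itself. Of the 6 monocyte markers 5 were called lower, and their summed level was 24358 and 24510 TPM in PBS and 20823 and 20564 TPM in CS1. Among them Lyz2, the lysozyme gene, went from 13128 and 13256 TPM to 6193 and 6222 TPM and Ccr2, the receptor that brings monocytes out of the marrow, from 411 and 423 TPM to 154 and 142 TPM. Chil3, which encodes a chitinase-like protein, rose from 5332 and 5401 TPM to 10491 and 10225 TPM. Of the 6 mature neutrophil markers 4 were called higher and 1 lower, and the sum went from 409 and 423 TPM to 1089 and 1031 TPM. Most of that rise was Stfa2l1, from 196 and 211 TPM to 791 and 728 TPM. Ly6g was not called, at 3.85 and 5.21 TPM in PBS and 4.67 and 4.04 TPM in CS1. Cxcr2 was the marker called lower (log2 fold change -0.43). Mpo, of promyelocyte granules, rose from 160 and 163 TPM to 805 and 821 TPM. Plasmacytoid dendritic cells, the classical source of interferon-alpha, left little RNA, with 4 of their 6 markers under 1 TPM in every library. The sum of the 6 was 3.12 and 2.41 TPM in PBS and 4.79 and 3.93 TPM in CS1. Siglech, the only 1 tested, was called higher, from 0.79 and 0.81 TPM to 3.12 and 2.46 TPM. It passed the filter through its CS1 values alone. Of the 8 tissue macrophage markers 6 were under 1 TPM in every library, among them C1qa, Cd5l and Timd4, and the list's sum (166 and 167 TPM in PBS, 99.6 and 101 TPM in CS1) was almost all Adgre1.

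Lymphocyte markers were low. Of those tested, 2 of 4 T cell genes and 4 of 5 B cell genes were called lower and none higher. The shares over all tested features were 31.6% lower and 35.3% higher. The sums were 11.8 and 11.0 against 7.04 and 6.86 TPM for 6 T cell genes, 55.3 and 53.7 against 34.5 and 31.7 TPM for 5 B cell genes, and 9.37 and 10.1 against 1.45 and 2.02 TPM for 3 plasma cell genes. The 5 natural killer cell genes summed to 9.73 and 9.73 against 11.4 and 13.3 TPM. Klrd1, the receptor chain CD94, rose from 6.46 and 6.76 TPM to 10.6 and 12.0 TPM, while the other 4 genes summed to 3.27 and 2.97 against 0.87 and 1.34 TPM. Of these 4, Ncr1 was at 0.43 and 0.44 TPM in PBS and listed at 0.01 TPM in both CS1 libraries. The sum of 5 conventional dendritic cell genes was 49.4 and 52.8 against 56.4 and 53.8 TPM, and its genes moved in opposite directions. The lectin gene Cd209a fell from 23.7 and 24.7 TPM to 10.1 and 9.55 TPM, while Clec9a, Zbtb46 and Clec10a were called higher (log2 fold changes 1.19, 0.66 and 0.63). For the erythroid genes it was 18.4 and 19.0 TPM in PBS and 28.4 and 3.77 TPM in CS1, where the haemoglobin gene Hba-a1 stood at 26.1 TPM in replicate 1 and was listed at 0.01 TPM in replicate 2. Of 5 stroma and endothelium genes, 4 were under 1 TPM in every library, and the sum, 45.5 and 43.7 against 37.9 and 36.1 TPM, was almost all Pecam1.

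**Figure D5:**
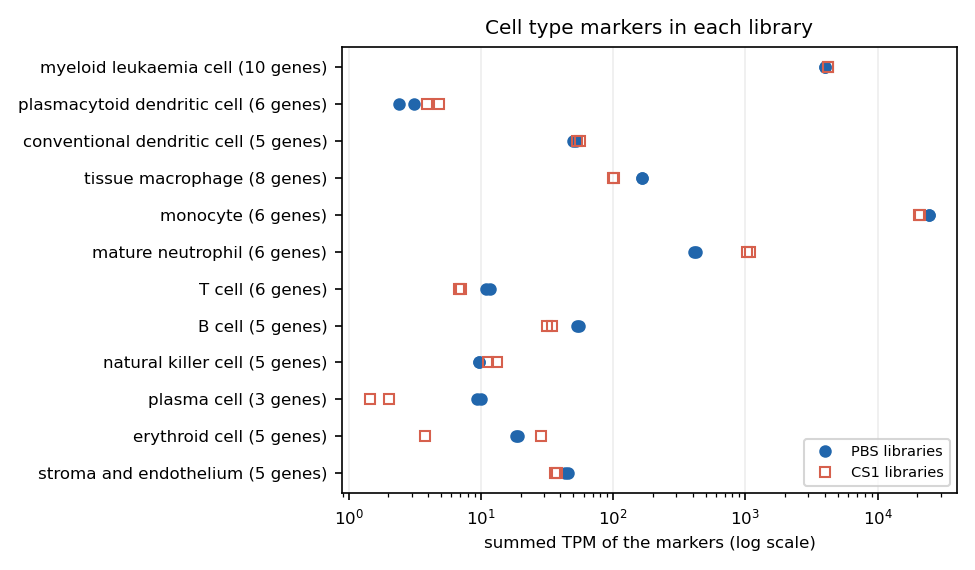
Summed TPM of marker genes for 12 cell types in each library on a log axis, with filled circles for PBS and open squares for CS1. Monocyte markers sum to between 20564 and 24510 TPM, and the lymphocyte markers stay under 60 TPM. The mature neutrophil sum is higher in CS1, mostly through Stfa2l1.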

How the data were processed

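Poly(A) RNA of 2 PBS and 2 CS1 libraries was compared, with groups taken from the sample titles. STAR, RSEM and mm10 are named in the submitters' processing notes, without versions or an annotation. The deposited values were taken as TPM made by the authors: header and labels name no unit, but the columns have decimals and sum to 977973 to 986345, and RSEM writes TPM. TPM keeps no depth, so no counting interval is given. The lowest listed value is 0.01.

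Features of at least 1 TPM in at least 2 libraries (11866 of 24497) were tested on log2(TPM + 1) with limma 3.58.1 under R 4.3.3 (trended variance, two-sided). P-values were adjusted by Benjamini-Hochberg across these features, and a call is an adjusted p under 0.05. TMM scaling (trimmed mean of M values, unweighted) was an alternative. The code was tested on simulated data. An exact permutation test of 2 against 2 cannot go below p = 0.333. The members and lists were chosen with earlier results of these data known, so they are described by counts and medians with no test over a list.

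All members are accounted for. Values in each library are given for the 3 most abundant members of each role, the 10 called members of largest change, called members that rose, the Ifitm genes, the signal factors and the sensors; for a fixed set of pathway genes, of which 1 is not reported here; and for the 3 further induced genes of smallest p in each direction. Ratios between pairs, Eif2ak2, Adar, Isg15, Herc6, Rtp4 the uncalled members beyond these, and the other receptor, adaptor, regulator and marker genes named were added after their values were seen. Coordinates are from GENCODE M21 (GRCm38, the assembly of mm10), matched for all 43 members, Mb21d1 through its RefSeq synonym. Of the pathway list, 2 symbols had no row and are not analysed here.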

Additional observations from a re-analysis of the deposited data

How the results depend on the processing

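The 12 alternatives changed the pseudocount, the filter, the scaling, the variance trend, the replicate block and the libraries used. Of the 28 members called lower, 24 were called lower in every fit in which they were tested; Isg15, Xaf1, Ddx58 and Herc6 were not. Rtp4, among the 24, passed the main filter through its PBS values alone. No called member changed direction in these fits. The median log2 fold change of the tested members was -0.57 with TMM scaling and -0.63 after quantile normalization, and between -0.54 and -0.45 leaving out 1 library at a time. Members called lower numbered 28 with a pseudocount of 0.1 or 0.5, 30 with TMM scaling and 29 after quantile normalization. They numbered 27 with no filter and 25 with a filter of at least 5 TPM in 2 of the 4 libraries. In each of these fits 1 member was called higher. The share of all tested features called lower was 31.6% in the main fit and was not computed for the alternatives. Members called lower by at least 1 on the log2 scale numbered 7 in the main fit, against 2.44% of all tested features. The count was also 7 with either other filter, without the variance trend and with the replicate block, against 1.69% to 2.73%. It was 9 with TMM scaling, against 2.95%. With a pseudocount of 0.1 or 0.5 and after quantile normalization it was 11, against 3.30%, 2.88% and 3.16%. TMM scaling moved the median of all tested features from 0.04 to -0.02. With the replicate block, 29 members were lower and 1 higher; the added call was Bst2. The labels do not say that a number pairs libraries, and the deviations of replicate 1 from its group mean had r = 0.02 between the groups over 11866 features. Leaving out a library leaves 1 in its group, which is assumed to vary like the other group. Without depth, differences in members under about 1 TPM cannot be weighed against counting error.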
